A study of Homo sapiens with 8 samples.

Results

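The receptors of interleukin-4 and interleukin-13 were examined in the human lung cancer cell line H460, through 4 genes: the decoy receptor gene IL13RA2, the signalling chains IL13RA1 and IL4R, and the transcription factor gene STAT6. They are 4 of 19775 genes named on the arrays and have 8 of the 54613 probe sets compared. IL13RA2 was chosen by its measured rise on these arrays, among the largest of all genes, so its change is described here and not tested. The other 3 were taken in as its pathway partners. RNA was hybridised to 8 Affymetrix arrays, 4 of TRAIL-sensitive cells, which the labels call control, and 4 of cells with acquired TRAIL resistance. TRAIL is a cytokine of the tumour necrosis factor family that can start apoptosis. The resistant cells had received it daily at subtoxic doses for 6 months, and both groups carry the same cell line label and no engineered change. The labels do not say whether the resistant cells are a clone or a pool, nor whether the 4 arrays of each group stem from different cultures. P-values therefore rest on array-to-array spread that may be purely technical, and resistance cannot be told apart from long exposure or time in culture.

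Interleukin-13 binds IL13RA1, which then recruits IL4R, and this pair is also a receptor for interleukin-4. Kinases of the JAK family bound to the chains phosphorylate STAT6, which enters the nucleus and switches on genes of type 2 inflammation and of mucus and matrix production in airway epithelium. IL13RA2 binds interleukin-13 tightly but has a short intracellular tail without a site for JAK kinases. It is known as a decoy and is found on several tumour types.

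The epithelial keratin genes KRT8 and KRT18 were bright in both groups. KRT8 lay at log2 levels of 11.41 and 11.36 and KRT18 at 13.18 and 13.12 in sensitive and resistant cells. EPCAM, CDH1 and CLDN4 lay below the level of the median probe set, which had a mean log2 level of 5.01 over the 8 arrays, or a signal of 31.2. Of 7 epithelial markers 1, KRT19, was called lower, and the summed signal of the 7 was 17327 to 20158 on sensitive and 13625 to 16355 on resistant arrays, without overlap. That sum is ruled by its brightest genes. KRT19 went from a mean signal of 5903 in sensitive to 2496 in resistant cells, while the groups overlapped for KRT8 and KRT18. Of 8 fibroblast markers 2 fell, LUM and PDGFRB, and COL3A1 was bright in both groups, at 9.96 and 9.95. Of 6 immune and 4 endothelial markers none was called in limma's test, nor at an unadjusted p below 0.05. Summed signals were 133 to 195 and 150.4 to 183 for the immune list, 84.5 to 113 and 60.2 to 116 for the endothelial list, and 1318 to 1490 and 1212 to 1322 for the fibroblast list, for sensitive and resistant arrays in this order. The 3′ minus 5′ difference of the ACTB control probe sets was 0.23 on the sensitive arrays and 0.10 to 0.13 on the resistant arrays (exact permutation p = 0.0286, two-sided). The same difference for GAPDH was -0.15 to -0.13 and -0.22 to -0.058 (p = 0.686, same exact test). The part of the ACTB difference and of the epithelial sum in the results below was not tested.

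IL13RA2 went from a dim to a bright signal. Its 1 probe set (206172_at) gave signals of 9.04, 15.3, 16.4 and 20.1 on sensitive arrays 1 to 4. On the resistant arrays it gave 2144, 2244, 2269 and 2435. The lowest resistant signal was 107 times the highest sensitive one. On the log2(signal + 1) scale used for all differences, the level was 3.97 ± 0.45 (SD, n = 4) in sensitive and 11.15 ± 0.08 in resistant cells, a difference of 7.18 ± 0.22 (SE). By estimated change it ranked 2 among 19775 genes. Each sensitive signal lay under that of the median probe set, where this kind of signal is noisy, so the size of the fold is uncertain. With a pseudocount of 16 in place of 1 the difference was 6.21.

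**Figure D1:**
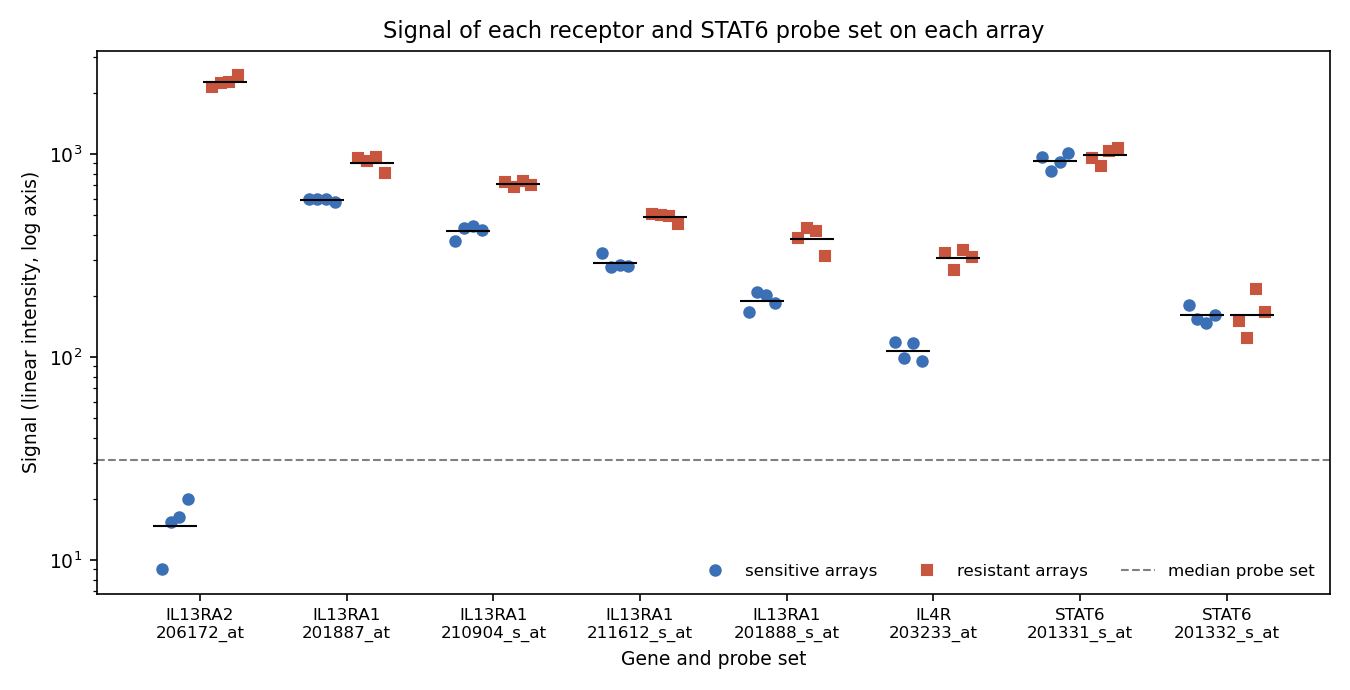
Signal of each probe set of IL13RA2, IL13RA1, IL4R and STAT6 on the 4 sensitive and 4 resistant arrays, on a logarithmic axis; points are arrays, black bars group means on the log2 scale, and the dashed line the median probe set. The groups are apart for the first 6 probe sets and overlap for both STAT6 probe sets.

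IL13RA1, the chain that binds interleukin-13 first, rose on all 4 of its probe sets. The brightest, 201887_at, read 601, 599, 601 and 581 on the sensitive arrays and 951, 918, 960.4 and 805 on the resistant ones. Its change was 0.61 ± 0.09 (SE, n = 4 per group, adjusted p = 0.00421, limma with Benjamini-Hochberg adjustment over all probe sets), a 1.52-fold rise. Every resistant array was above every sensitive array, with resistant array 4 the lowest of its group.

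Probe set 210904_s_at of IL13RA1 read 372, 433, 443 and 422 in sensitive and 730.1, 686, 735 and 703 in resistant cells, a change of 0.78 ± 0.10 (adjusted p = 0.00151). Probe set 211612_s_at read 325, 277, 283 and 282 against 504, 499, 497 and 449.7, a change of 0.74 ± 0.10 (adjusted p = 0.00204). Probe set 201888_s_at, the dimmest, read 166, 209, 203 and 184 against 384, 430.0, 416 and 314, a change of 1.01 ± 0.14 (adjusted p = 0.00240). On none of these did the groups overlap, and the estimated rises ran from 1.52-fold to 2.02-fold. The 3 probe sets with the suffix _s_at may bind more than one transcript.

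IL4R, the chain that interleukin-4 binds and that completes the interleukin-13 receptor, rose more than most IL13RA1 probe sets. Its 1 probe set (203233_at) read 119, 99.3, 117 and 95.3 on the sensitive arrays. On the resistant arrays it read 325, 268, 338 and 309, at least 2.26 times the highest sensitive array. The change was 1.52 ± 0.12 (adjusted p = 0.000297), a 2.86-fold rise from a log2 level of 6.76 ± 0.16 (SD) to 8.28 ± 0.15.

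STAT6, the transcription factor that both receptors activate, was not called. Probe set 201331_s_at read 967, 821, 912 and 1013 in sensitive and 959, 873, 1034 and 1075 in resistant cells. Its change was 0.086 ± 0.11 (adjusted p = 0.679), with a 95% interval of -0.18 to 0.35. Probe set 201332_s_at read 181, 154, 146 and 161 against 151, 125, 215 and 166, a change of 0.0090 ± 0.18 (adjusted p = 0.982) with an interval of -0.40 to 0.42. On both probe sets the groups overlapped. The upper bounds are below every estimated rise of IL13RA1 and IL4R. The 95% interval of IL13RA1 probe set 201887_at, 0.39 to 0.83, still overlaps that of STAT6 probe set 201332_s_at. Intervals of the other IL13RA1 probe sets and of IL4R lie above both STAT6 intervals. Smaller changes of STAT6 lie within its intervals.

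Of the 7 probe sets of IL13RA1, IL4R and STAT6, 5 were called, all of them higher in resistant cells. IL13RA1 alone gave 4 of these calls. Of all probe sets, 19.5% were called in either direction, 9.13% as higher and 10.4% as lower. These shares include many dim probe sets, while all 7 lay above the median probe set in both groups. In the fit without dim probe sets 54.1% of 11641 genes were called, so 5 of 7 stands out less among bright genes. The groups did not overlap on the same 5 of 7 probe sets, with the resistant arrays above. Of all probe sets 26.4% did not overlap, and 12.5% lay higher in resistant cells without overlap. The calls of IL13RA1 and IL4R held in each of the 15 or 16 alternatives run for a probe set, leaving out each array included, with adjusted p-values of at most 0.0461.

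Whether the probe sets changed by different amounts was tested on their log2 differences within each array, in 21 pairs of the 7 probe sets, a test added after the values were seen. The exact two-sided permutation test over 70 assignments of arrays cannot give a p below 0.0286. That smallest p was reached in 15 of the 21 pairs, which sets their adjusted p at 0.0400. The pairs share probe sets, so they are not independent of each other. In all 10 pairs of a receptor probe set with a STAT6 probe set the receptor rose more, by 0.52 to 1.51 (adjusted p = 0.0400 in each, exact). IL4R rose more than 3 of the 4 IL13RA1 probe sets, by 0.74 to 0.91 (adjusted p = 0.0400, exact). Against 201888_s_at its excess of 0.51 did not pass (adjusted p = 0.0750, exact). Among the IL13RA1 probe sets, 201888_s_at and 210904_s_at rose more than 201887_at, by 0.41 and 0.17 (adjusted p = 0.0400, exact), and the other 4 pairs did not pass. Probe sets of the same gene thus differed in this test too. A difference between probe sets of different genes may therefore be one of probe sets and not of genes, and IL4R has only 1 probe set.

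The start region of IL13RA1 and a stretch of that of IL4R are shown because both genes were called higher. Any part of these sequences in the rises was not tested. RefSeq's promoter windows of 300 bases (GRCh38.p14) matched 3 of the 4 genes: IL13RA1, IL4R and STAT6. The 250 bases before the start of IL13RA1, at chrX:118727356-118727605 on the plus strand, read 5′ to 3′ with GC boxes (GGGCGG on either strand) in capitals:
IL13RA1: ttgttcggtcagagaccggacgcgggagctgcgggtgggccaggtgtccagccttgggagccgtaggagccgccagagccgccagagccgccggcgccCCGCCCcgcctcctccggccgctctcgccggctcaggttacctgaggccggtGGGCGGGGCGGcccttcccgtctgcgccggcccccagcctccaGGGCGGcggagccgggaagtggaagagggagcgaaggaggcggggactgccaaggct
A stretch of 30 bases from the IL4R window, at chr16:27313840-27313869 on the plus strand, holds the first 2 of its GC boxes:
IL4R: gcgccGGGCGGGGCGGcgcatgcaaatctg

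The windows of IL13RA1 and IL4R each held 4 matches to the GC box GGGCGG and that of STAT6 held 2, where matches that overlap by a base were counted separately. Of 35116 promoters of the same length, 45.0% held at least 1, 26.7% at least 2 and 9.06% at least 4. These shares are over promoters of any base composition. G and C made up 76.3% of the IL13RA1 window, 79.3% of that of IL4R and 57.7% of that of STAT6, against a median of 58.7% over all promoters. The STAT motif TTCNNNGAA, its form with 1 more N and the AP-1 motif TGANTCA, searched on both strands, were not matched in these 3 windows. Of all promoters 7.66%, 6.44% and 7.71% held them.

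The ligand gene IL4 lay below the median probe set in both groups and IL13 a little above it. IL13 had log2 levels of 5.38 ± 0.39 (SD) and 5.16 ± 0.23 and IL4 of 2.33 ± 1.31 and 2.06 ± 1.12 in sensitive and resistant cells, and neither was called (adjusted p = 0.558 and 0.862). Of 6 measured genes of type 2 cytokines, 1 rose and 1 fell, with a median change of -0.25. IL33, an epithelial alarm cytokine, rose by 1.68 ± 0.23 (adjusted p = 0.00224) but from a log2 level of 0.99 to 2.67, near the bottom of the scale. With a pseudocount of 16 its change was 0.33 (adjusted p = 0.0192). TSLP, another epithelial cytokine that drives type 2 responses, fell by 2.11 ± 0.40 (adjusted p = 0.00931), from 5.02 to 2.91, and by 1.05 with a pseudocount of 16 (adjusted p = 0.00127). In all, 12.1% of the 19775 genes were called higher and 12.8% lower, or 24.9% in either direction, each gene taken by its brightest probe set, and the median change of all genes was -0.035.

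The chains and kinases that work with the receptors mostly did not pass. Of 11 measured, 1 rose and 1 fell, against 12.1% and 12.8% of all genes (median change -0.062). IL2RG, the common gamma chain that pairs with IL4R on blood cells, lay at 3.39 ± 0.69 (SD) and 4.25 ± 0.99, below the median probe set, and was not called (adjusted p = 0.349). JAK1, the kinase bound to IL4R, fell by 0.37 ± 0.08 (adjusted p = 0.0192), from 10.57 ± 0.06 to 10.20 ± 0.04. JAK2 changed by -0.13 ± 0.15 and TYK2, the kinase bound to IL13RA1, by -0.062 ± 0.14, and neither passed (adjusted p = 0.627 and 0.818). The estimate for JAK2 depended on the setting. It ran from -0.60 to -0.032 over 17 alternatives, with no adjusted p below 0.0912 in limma's test. FES, a tyrosine kinase, rose by 1.56 ± 0.44 (adjusted p = 0.0447) from a very low level of 1.87. JAK1 was not called after median centring (-0.30, adjusted p = 0.0897), with the mean of its probe sets (-0.30, adjusted p = 0.0676), or without sensitive array 4 or resistant array 2 or 3 (-0.40 to -0.35 when leaving out each array, adjusted p up to 0.0562). FES was called only in the fits without sensitive array 1 or resistant array 4 among those leaving out an array (1.27 to 1.85, adjusted p up to 0.111), and neither with a pseudocount of 16 (0.51, adjusted p = 0.0677) nor with an intensity trend and a robust prior (adjusted p = 0.0678). The list had 0 calls without sensitive array 4 or resistant array 2 or 3, and 1 without sensitive array 2 or 3 or resistant array 1.

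Among the 4 other STAT genes measured, STAT3, the factor downstream of the interleukin-6 family, rose and the remaining 3 were not called (median change 0.13). STAT3 went from a log2 level of 9.15 ± 0.08 (SD) to 10.09 ± 0.02, a change of 0.94 ± 0.09 (adjusted p = 0.000449). That call held in each alternative run, with a change of 0.61 for the mean of its probe sets (adjusted p = 0.00765).

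Inhibitors of JAK-STAT signalling moved in both directions. Of 16 measured, 2 rose and 2 fell, against 12.1% and 12.8% of all genes (median change -0.032). SOCS3, a feedback inhibitor induced by STAT3, fell by 0.79 ± 0.14 (adjusted p = 0.00645), from 11.49 ± 0.18 to 10.70 ± 0.17. SOCS2, an inhibitor of growth hormone signalling, fell by 0.59 ± 0.09 (adjusted p = 0.00384). With the mean of its probe sets SOCS2 changed by -0.076 (adjusted p = 0.882). SOCS5 rose by 0.39 ± 0.11 and PTPN11, the phosphatase SHP2, by 0.33 ± 0.08 (adjusted p = 0.0418 and 0.0303). Both were lost in 7 of the 8 fits leaving out an array, all but that without resistant array 4, with adjusted p-values up to 0.111 and 0.0878, so that 2 calls of the list were left in these fits. PTPN11 changed by 0.14 with the mean of its probe sets (adjusted p = 0.259).

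Partners of STAT6 in transcription gave 3 falls and no rise among 9 measured genes (median change -0.22). Over all genes 12.8% were called lower and 12.1% higher. At an unadjusted p below 0.05 in limma's test 4 were lower and 0 higher. No count was made over all genes at that level, so these 2 counts cannot be set against a background. CEBPB, a factor that acts with STAT6, fell by 0.47 ± 0.09 (adjusted p = 0.0117), from 13.26 to 12.80. NCOA1, a coactivator that binds STAT6, fell by 0.56 ± 0.14 (adjusted p = 0.0272), and KLF4, a factor that works with STAT6 in macrophages, by 0.47 ± 0.12 (adjusted p = 0.0329). NCOA1 was lost without sensitive array 1 or 2 or resistant array 2, 3 or 4 (-0.63 to -0.49, adjusted p up to 0.0722). KLF4 was called in only 2 of the fits leaving out an array, those without sensitive array 3 or resistant array 4 (-0.52 to -0.38, adjusted p up to 0.0836), and not after median centring (-0.40, adjusted p = 0.0904). The list had 1 call without sensitive array 1 or 2 or resistant array 2 or 3.

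Genes known to be induced by interleukin-4 or interleukin-13 did not move one way. Of 35 measured, 5 rose, 3 fell and 27 were not called, a share near that of all genes, and the median change was -0.064. The mean of 25 of the 35 lay below the median probe set. POSTN, the matrix protein periostin and a serum marker of interleukin-13 activity, rose by 6.18 ± 0.27 (adjusted p = 2.5e-05), from a log2 level of 3.50 ± 0.56 (SD) to 9.68 ± 0.06. TGM2, a protein crosslinking enzyme, rose by 4.004 ± 0.15 (adjusted p = 1.71e-05), from 5.12 ± 0.25 to 9.12 ± 0.14. The squamous antigen genes SERPINB4 and SERPINB3 rose by 2.18 ± 0.61 and 1.38 ± 0.14 (adjusted p = 0.0438 and 0.000740). These 2 genes are near-identical copies whose probe sets may read both. SLC26A4, the anion exchanger pendrin, rose by 1.37 ± 0.32 (adjusted p = 0.0233) from a dim level of 2.70.

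The falls in that list were those of CH25H, cholesterol 25-hydroxylase, by 2.37 ± 0.33 (adjusted p = 0.00253), of the tetraspanin gene TSPAN8 by 1.93 ± 0.09 (adjusted p = 3.86e-05) and of MAOA, monoamine oxidase A, by 0.80 ± 0.16 (adjusted p = 0.0113). TSPAN8 went from 8.72 ± 0.11 to 6.79 ± 0.03, the clearest of these falls in a well measured gene. SERPINB4 was lost in 7 of 8 fits leaving out an array, all but that without sensitive array 1 (1.81 to 2.78, adjusted p up to 0.106). SLC26A4 was lost without sensitive array 3 or 4 or resistant array 2 or 4 (1.20 to 1.57, adjusted p up to 0.0638), and with an intensity trend and a robust prior (adjusted p = 0.0766). With a pseudocount of 16 the changes of SERPINB4, SLC26A4 and CH25H were 0.82, 0.57 and -1.33, all called. On the probe set without a suffix for possible cross-hybridisation POSTN changed by 1.61 (adjusted p = 0.199), and with the mean of all its probe sets by 3.36 (adjusted p = 0.000513). SERPINB3 rose by 2.13 with the mean of its probe sets (adjusted p = 0.000823). SERPINB3, SLC26A4, TSPAN8 and MAOA were named after their values were seen.

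**Figure D2:**
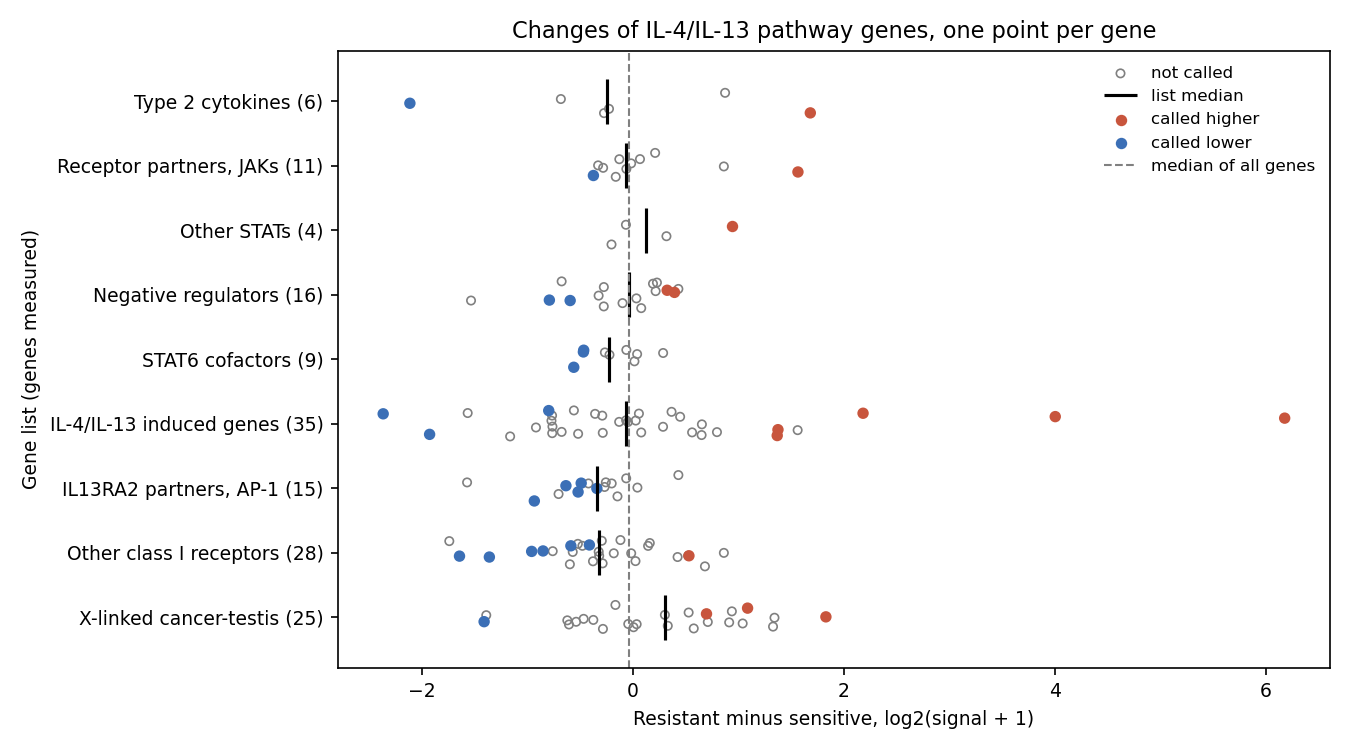
Change of each measured gene in 9 lists around the interleukin-4 and interleukin-13 pathway, given as the resistant mean minus the sensitive mean of log2(signal + 1), 1 point per gene. Filled points passed the test, black bars are list medians, and the dashed line is the median of all genes at -0.035; POSTN is the point farthest to the right, at 6.18.

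The next list held genes of proteins described to work with IL13RA2 and of AP-1 factors named in its signalling. Of 15 measured, 0 rose and 5 fell, against 12.1% and 12.8% of all genes (median change -0.34). At an unadjusted p below 0.05 in limma's test 7 were lower and 0 higher. The share of all genes at that level was not counted, so these counts have no background to be read against. At that level class I receptors had 2 higher and 11 lower, induced genes 6 and 4, and cancer-testis genes 5 and 3. Inhibitors had 2 and 3, receptor partners and kinases 1 and 3, type 2 cytokines 1 and 1, and other STAT genes 1 and 0. FOSL1, an AP-1 subunit, fell by 0.93 ± 0.09 (adjusted p = 0.000678), from 9.70 ± 0.10 (SD) to 8.76 ± 0.06. The AP-1 subunit genes JUNB, JUN and FOSL2 fell by 0.63 ± 0.13, 0.52 ± 0.13 and 0.49 ± 0.10 (adjusted p = 0.0115, 0.0277 and 0.0149). TMEM219, a partner of IL13RA2 at the membrane, fell by 0.34 ± 0.10 (adjusted p = 0.0456) and was named after its value was seen. JUN was called in only 2 of the fits leaving out an array, without sensitive array 2 or resistant array 4 (-0.60 to -0.47, adjusted p up to 0.0781), and TMEM219 in only 1, without resistant array 4 (-0.39 to -0.31, adjusted p up to 0.118). Both were lost after median centring (-0.45 and -0.27, adjusted p = 0.0621 and 0.146). JUN was lost on the probe set without a suffix (-0.40, adjusted p = 0.298), and FOSL2 fell by 1.02 with the mean of its probe sets (adjusted p = 0.000127). The list had 3 calls without sensitive array 1 or 4 or resistant array 1, 2 or 3.

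Other chains of the same receptor family were lower where they were called, with 1 exception. Of 28 measured class I cytokine receptor genes, 1 rose and 6 fell, against 12.1% and 12.8% of all genes. The share called in either direction, 7 of 28, was near the 24.9% of all genes. The median change was -0.32. CRLF2, the receptor chain for TSLP, fell by 0.96 ± 0.09 (adjusted p = 0.000420), from 8.53 ± 0.05 (SD) to 7.57 ± 0.06. CSF2RA, the alpha chain for granulocyte-macrophage colony-stimulating factor, fell by 1.36 ± 0.17 (adjusted p = 0.00156), from 8.24 ± 0.09 to 6.88 ± 0.32. LIFR and OSMR, receptors for leukaemia inhibitory factor and oncostatin M, fell by 0.85 ± 0.12 and 0.59 ± 0.08 (adjusted p = 0.00313 and 0.00306).

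IL6ST, the chain gp130 that LIFR and OSMR share, fell by 0.41 ± 0.11 (adjusted p = 0.0436), and IL27RA rose by 0.53 ± 0.15 (adjusted p = 0.0458). Both were lost in each of the 8 fits leaving out an array, with adjusted p-values up to 0.109 and 0.108, and IL6ST also after median centring (-0.34, adjusted p = 0.149). IL21R fell by 1.64 ± 0.32 (adjusted p = 0.0113) from a dim 5.11. Its change was -0.91 with a pseudocount of 16 (adjusted p = 0.00426) and -0.48 with the mean of its probe sets (adjusted p = 0.364). It turned to 0.95 on its probe set without a suffix (adjusted p = 0.553), and IL27RA to -0.12 with the mean of its probe sets (adjusted p = 0.715). With the mean of their probe sets OSMR fell by 1.02 and IL6ST by 0.67 (adjusted p = 0.000104 and 0.00494). OSMR, IL6ST and IL27RA were named after their values were seen. IL4R and IL13RA1, with rises on every probe set, thus stood on the other side of 0 from the median of this list, a difference that was not tested.

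IL13RA2 lies on the X chromosome and is counted among the cancer-testis genes, which are normally silent outside the testis. Of 25 other X-linked genes of this class measured, 3 rose and 1 fell, against 12.1% and 12.8% of all genes. Their median change was 0.30, and 23 had a mean below the median probe set. MAGEA1 rose by 1.09 ± 0.11 (adjusted p = 0.000617), from an already bright 9.93 ± 0.05 (SD) to 11.02 ± 0.15, and MAGEB2 by 0.70 ± 0.08 (adjusted p = 0.00142), from 10.00 ± 0.05 to 10.69 ± 0.05. The MAGEA1 probe set has a suffix for cross-hybridisation and may read related MAGE genes. PAGE4 rose by 1.83 ± 0.50 and MAGEA8 fell by 1.41 ± 0.38, both at dim levels (adjusted p = 0.0413 and 0.0374). Each was lost in 7 of 8 fits leaving out an array, all but that without sensitive array 1 for PAGE4 and without resistant array 1 for MAGEA8, with adjusted p-values up to 0.102 and 0.0955. MAGEA8 was also lost with an intensity trend and a robust prior (adjusted p = 0.0716) and with array weights (-1.29, adjusted p = 0.0661). With a pseudocount of 16 PAGE4 changed by 0.85 and MAGEA8 by -0.58, both called. The list had 2 calls without sensitive array 2 or resistant array 2, 3 or 4.

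Genes next to IL13RA2 and IL13RA1 changed less than IL13RA2, but IL13RA2 was chosen for its large rise, so that contrast carries no weight. Both genes lie close together in gene order, with 10 measured genes between them, so 10 measured neighbours on each side of each gene gave 30 genes in all. Of these, 5 rose and 2 fell, against 12.1% and 12.8% of all genes, with a median change of 0.0094. The 20 neighbours of IL13RA1 held all 5 rises and both falls (median change 0.10). The 20 neighbours of IL13RA2, 10 of them shared, held 3 rises and 1 fall (median change 0.0022). KLHL13, a ubiquitin ligase adaptor that lies between them, rose by 1.18 ± 0.22 (adjusted p = 0.00937), from a log2 level of 5.64 to 6.82. NKRF, a repressor of NF-kB targets, rose by 0.88 ± 0.14 (adjusted p = 0.00503), the actin bundling gene PLS3 by 0.46 ± 0.08 (adjusted p = 0.00836), WDR44 by 0.41 ± 0.10 (adjusted p = 0.0230) and the ubiquitin conjugating enzyme gene UBE2A by 0.34 ± 0.09 (adjusted p = 0.0400). The probe sets of IL13RA1 rose by 0.61 to 1.01, a range that holds the rise of NKRF and lies below that of KLHL13.

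DOCK11, an activator of small GTPases and the measured gene just before IL13RA1, fell by 0.67 ± 0.09 (adjusted p = 0.00186), and SEPTIN6 by 0.53 ± 0.13 (adjusted p = 0.0242). LRCH2, the measured gene that follows IL13RA2, went from 1.40 to 3.48, both below the median probe set, and was not called (2.08 ± 0.81, adjusted p = 0.129). It was called without resistant array 3 (2.83, adjusted p = 0.0173). UBE2A was lost in 7 of 8 fits leaving out an array, all but that without sensitive array 3 (adjusted p up to 0.106), and after quantile normalization (0.31, adjusted p = 0.0546). SEPTIN6 was lost without any 1 of the sensitive arrays or resistant array 3 (adjusted p up to 0.0653), and fell by 0.98 on its probe set without a suffix (adjusted p = 0.00260). WDR44 was lost without sensitive array 1, 3 or 4 or resistant array 2 or 3 (adjusted p up to 0.0681) and turned to -0.31 with the mean of its probe sets (adjusted p = 0.440). The list had 4 calls without sensitive array 4. All these neighbours but KLHL13 were named after their values were seen.

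**Figure D3:**
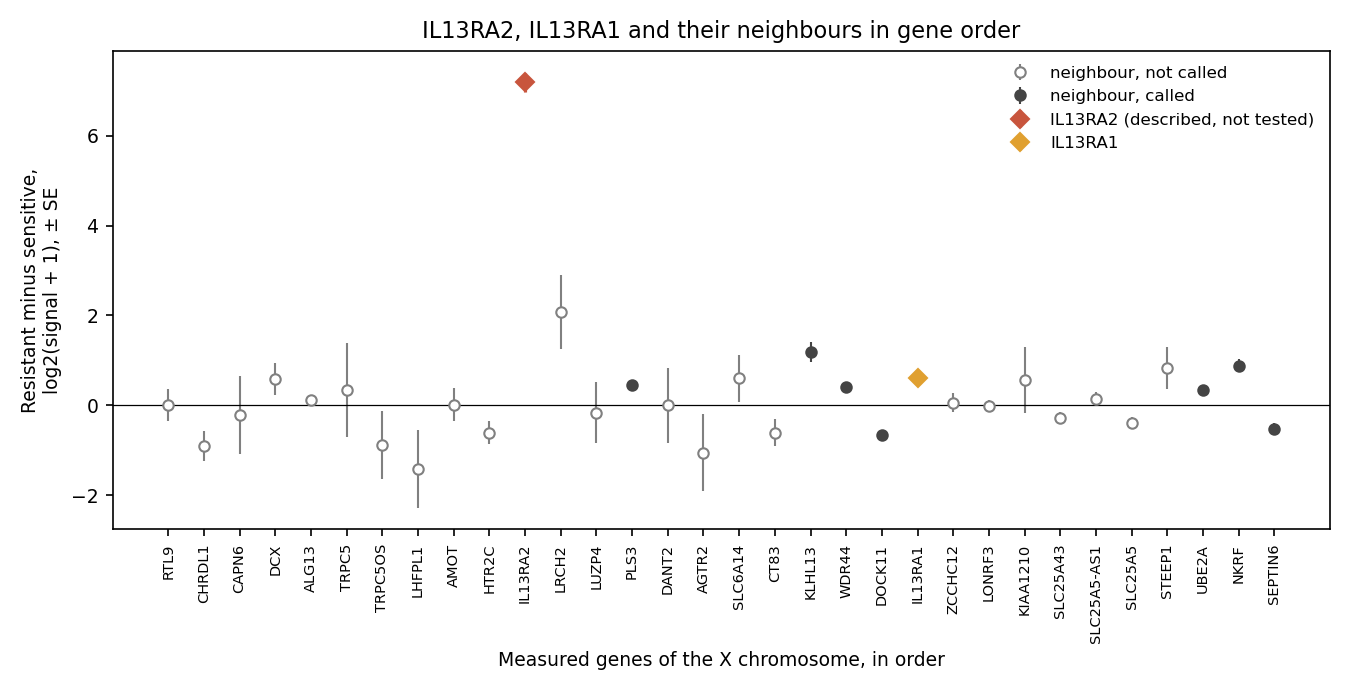
Change of IL13RA2, IL13RA1 and their 30 measured neighbours in the order of the X chromosome, given as the resistant mean minus the sensitive mean of log2(signal + 1) with its standard error. IL13RA2 stands at 7.18, IL13RA1 at 0.61 for its brightest probe set, and called neighbours lie between -0.67 and 1.18.

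The 5 genes whose profile over the 8 arrays lay closest to that of IL13RA2 were SPINK6, POSTN, RGS4, MMP1 and BMP2. Likeness was the root mean square distance between log2 profiles, each centred on its own mean, and the arrays share their group, so large rises come first by construction. The distances were 0.39 for SPINK6, a serine protease inhibitor gene, 0.54 for POSTN, 0.63 for RGS4, a regulator of G-protein signalling, 0.76 for MMP1, the interstitial collagenase, and 0.83 for BMP2, a bone morphogenetic protein. The next gene lay at 0.95 and the median gene at 3.65. All 5 were dim in sensitive cells, at mean log2 levels of 2.19 to 4.80, and lay between 8.74 and 12.52 in resistant cells. Of these 5, POSTN alone was in the list of genes induced by interleukin-4 or interleukin-13. That list was chosen with earlier results of these data known. On its probe set without a suffix POSTN changed by 1.61 (adjusted p = 0.199, limma).

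**Figure D4:**
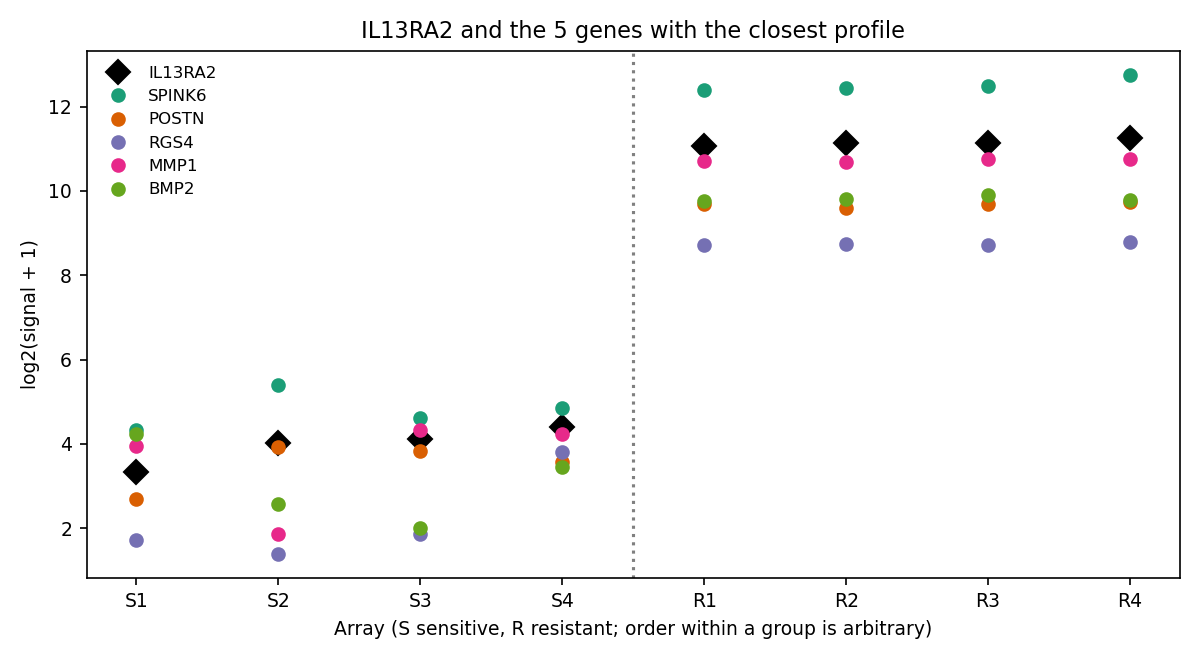
Level of IL13RA2 and of the 5 genes with the closest profile on each array, on the log2(signal + 1) scale; S1 to S4 are sensitive and R1 to R4 resistant arrays. All 6 genes are low on each sensitive array and high on each resistant one, and they spread more among the sensitive arrays than among the resistant ones.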

How the data were processed

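The table as deposited holds an intensity per probe set on a linear scale, for 54675 probe sets (62 of them controls) and 8 arrays. RMA is the method given in the submitters' processing notes, but the signals are linear and each array has a mean of 200.0 once 2% of its probe sets are trimmed from either end. That is the form of MAS-type scaling, so the step that made them is not settled. Each array being scaled to 1 mean, a change in total RNA cannot be seen, and median signals were 32.6 to 37.5.

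Signals were taken as log2(signal + 1) and tested with limma 3.58.1 under R 4.3.3 (lmFit, then eBayes) over 54613 probe sets, with Benjamini-Hochberg adjustment and calls at an adjusted p below 0.05. A change is resistant minus sensitive and understates dim genes. Symbols came from the platform annotation (41097 probe sets with 1 symbol, 1801 with several, not used, and 11777 not listed), updated through RefSeq gene identifiers (41043 matched), and a gene was its brightest probe set. Data were also simulated over the 54613 probe sets, of which 200 were changed. There the fit recovered 4 of 67 changes of 1.5-fold, 36 of 67 of 2-fold and 59 of 66 of 4-fold, with 10 false calls. In the measured data 19.5% of probe sets were called, and the adjustment depends on how many probe sets change. The simulated recovery and false calls are therefore no estimate of those in the measured comparison. With only 4 arrays in each group, changes are estimated imprecisely.

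Named genes were all probe sets of the 4 members, of each list up to 4 called genes ranked by size of change, or the 2 best by p where none was called, neighbours called with at least a 2-fold change, and the 5 closest profiles. Genes said above to be named after their values were seen fell outside this rule. So did IL4, IL13, IL2RG, JAK2 and TYK2, which were not called and were also named after their values were seen. The members and lists were chosen with earlier results of these data known. Alternatives were a pseudocount of 16, quantile normalization, median centring, array weights, a robust prior with an intensity trend, the replicate number as a block, leaving out dim probe sets, other choices of probe set and leaving out each array. Replicate numbers did not pair arrays: deviations from group means of same-numbered arrays correlated at -0.025 to 0.015.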

Additional observations from a re-analysis of the deposited data

Results flagged for a closer look

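In 122 groups of 4 arrays, 8 held an array far from the other 3 (by Dixon's ratio of gap to range at 95%), and chance flags about 1 in 20. IL13RA1 accounted for 3: sensitive array 4 was low on 201887_at (9.19, the others 9.23), sensitive array 1 high on 211612_s_at (8.35, the others 8.12 to 8.15) and resistant array 4 low on the same probe set (8.82, the others 8.96 to 8.98). FES was high on sensitive array 1 (2.53, the others 1.64 to 1.67) and NKRF low there (8.26, the others 8.60 to 8.64). OSMR was high on sensitive array 2 (11.69, the others 11.62 to 11.63) and MMP1 low there (1.87, the others 3.94 to 4.33). MAGEA1 was high on resistant array 4 (11.25, the others 10.93 to 10.96).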

How the results depend on the processing

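The difference of IL13RA2 was 6.97 to 7.32 when leaving out each array, and 6.21 with a pseudocount of 16. The 5 calls of IL13RA1 and IL4R remained 5 in each alternative, and with the replicate block too, and the count of other STAT genes remained 1. With the replicate numbers as a block, which pairs arrays only by number, calls went from 2 to 0 for receptor partners and kinases, from 4 to 2 for inhibitors, from 3 to 0 for STAT6 cofactors, from 5 to 1 for IL13RA2 partners and from 7 to 1 for the X neighbours. Over all genes the block left 2377 calls of 4929. Leaving out each array gave 0 to 2, 2 to 4, 1 to 3 and 3 to 5 calls for the first 4 of these lists, 4 to 7 for the neighbours and 2 to 4 of 4 for cancer-testis genes. Median centring gave 1 call for receptor partners and 3 for IL13RA2 partners, and it left 2623 rises and 2008 falls over all genes against 2401 and 2528. The intensity trend and the mean of all probe sets each gave 8 for IL13RA2 partners. Without dim probe sets type 2 cytokines had 0 calls and cancer-testis genes 2, and the latter had 7 with a pseudocount of 16. Probe sets without a suffix gave 4 calls for induced genes, 8 before, and 4 for class I receptors, 7 before. Besides the turns of IL21R (0.95), IL27RA (-0.12) and WDR44 (-0.31) given above, uncalled genes changed sign: STAT6 on 201332_s_at (-0.13 to 0.13) and IL4 (-0.65 to 0.31) when leaving out arrays, IL4 with array weights (0.11) and with the mean of all probe sets (0.059), and TYK2 after median centring (0.012) and when leaving out arrays (-0.16 to 0.013). The causes were not tested. Levels below a log2 value of 5, as for IL13RA2 in sensitive cells, limit what can be said of fold sizes.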
